A study of Mus musculus with 6 samples.

Results

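Cathepsins are proteases that work mainly in lysosomes, the acidic compartments in which cells break down protein taken up from outside or delivered by autophagy. Most members are papain-like cysteine proteases (Ctsb, Ctsc, Ctsf, Ctsh, Ctsk, Ctsl, Ctss and Ctsz), Ctsd is an aspartic protease and Ctsa is a serine carboxypeptidase. They are made as inactive precursors, are sorted to lysosomes largely through mannose 6-phosphate receptors, and are held in check by cystatins and related inhibitors. In the early embryo the visceral endoderm, an absorptive epithelium, is known for its large lysosomes. These 10 genes were taken from the array by symbol, out of 18194 genes with a probe set of their own. The choice was made by a rule on gene names, and the family was selected on results of the same RA against control comparison, so its differences, and whether each passed the threshold in the fit across all genes, are given as a description and support nothing. They have 22 probe sets, of which 19 passed the filter on low signal, and all 10 genes were among the 13608 that could be compared.

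The samples were mouse embryoid bodies, aggregates in which embryonic stem cells differentiate, made from the D3 line, grown in rotary culture without LIF, the factor that holds stem cells undifferentiated, and collected at 10 days. In 3 control samples the bodies held gelatin-coated microspheres with CellTracker Red, a dye that follows cells, and in 3 RA samples they held gelatin-coated microspheres loaded with retinoic acid (RA), a vitamin A derivative. Both groups thus carried microspheres, no sample without them was analysed here, and the study varied microsphere ratios and rotary speeds without saying which was used for these arrays. Each sample was whole-body RNA on 1 Affymetrix array, described as triplicates without a statement that cultures were separate, so the spread between arrays may be technical.

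The deposited arrays differed in brightness, with median intensities of 41.4 to 65.5. Values given here are quantile-normalized log2(intensity + 16), in which fold changes of dim genes are understated, and the filter level was 5.74 on that scale. For Gapdh, whose 3-prime to 5-prime ratio reflects how intact the RNA is, RA array 1 gave 34.0 and the others 3.06 to 4.74. The actin ratio was 3.35 to 4.24 on control arrays and 4.35 to 7.42 on RA arrays. All 11 genes checked as markers of early lineages were above the filter level in at least 1 group, among them Pou5f1, Eomes, Sox17 and Myh6. Of all genes, 1949 passed the threshold as higher with RA (14.3%) and 2127 as lower (15.6%) by limma with Benjamini-Hochberg adjustment at 0.05. Of the 11 markers, 8 passed as higher, Pou5f1, Eomes and Sox17 among them, and 3 as lower, Myh6 among them. The RA mean of Myh6 (5.48) and the control mean of Sox1 (4.87) lay below the filter level. Myh6 passed the filter only through the control arrays and Sox1 only through the RA arrays, so the marker counts are a description.

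As a description, the 10 cathepsins differed from each other in direction and size. Ctsc was far higher with RA, Ctsh was moderately higher, Ctsb and Ctsd were moderately lower, and Ctsl was at the same level in both groups within the spread of the arrays. Of the 10 genes, 2 passed the threshold as higher and 2 as lower (40%), beside 30.0% of all genes tested in either direction, and nothing is read from that share because the family was selected on this contrast. For 6 of the 10, control and RA arrays did not overlap, beside 44.0% of all genes. The median log2 fold change of the 10 was -0.05, against 0.01 over all genes, with a range from -0.69 to 2.97. In bulk RNA, fewer cells of a type and less RNA in each cell cannot be told apart.

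**Figure D1:**
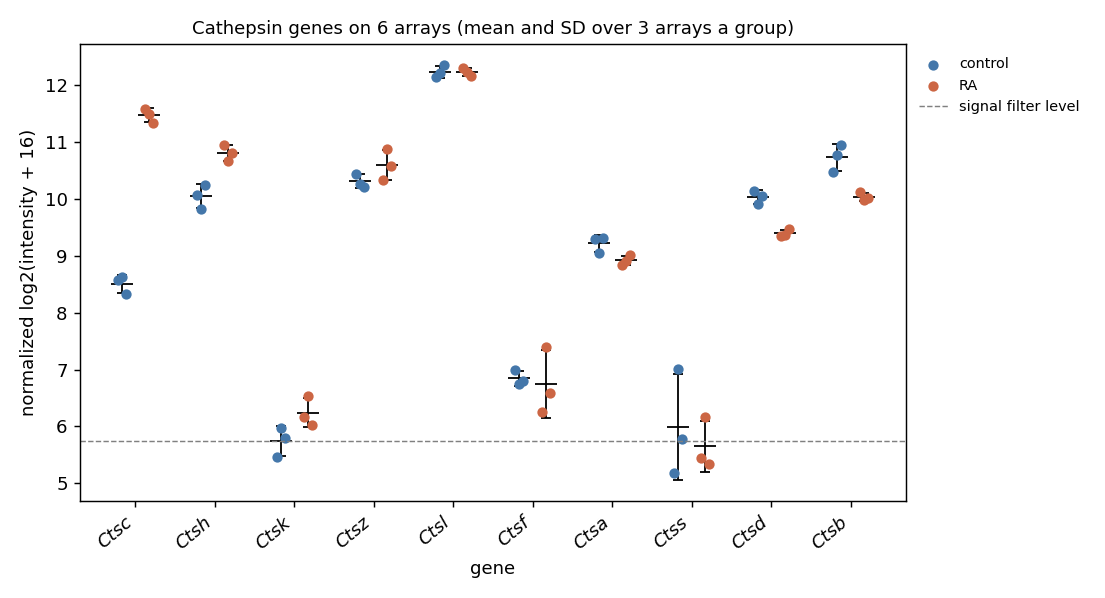
Normalized log2(intensity + 16) of the 10 cathepsin genes (vertical axis) on each control and RA array, ordered by the difference between groups, with bars for the mean and SD of 3 arrays and a dashed line at the filter level of 5.74. Ctsc stands apart, with RA arrays between 11.34 and 11.58 and control arrays between 8.32 and 8.63, while Ctsk and Ctss lie near the filter level.

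Ctsc encodes dipeptidyl peptidase I, which removes pairs of residues from the N terminus of proteins and is known for activating the serine proteases of immune cell granules. Its log2 level read 8.57, 8.63 and 8.32 on control arrays 1, 2 and 3 against 11.58, 11.49 and 11.34 on RA arrays 1, 2 and 3. The groups lay 2.72 apart at their closest arrays. The deposited intensity, before any normalization, read 393, 396 and 204 on the control arrays against 3280, 3472 and 2993 on the RA arrays. The log2 fold change was 2.97 ± 0.10 (SE), a 7.81-fold higher level with RA, larger than that of 99.9% of genes tested. Ctsc has 3 probe sets, and they differed in size. The second lay at 5.87, 5.70 and 5.69 on the control arrays against 6.41, 6.77 and 6.63 on the RA arrays, a difference of 0.85 ± 0.25. The third, at a mean level of 5.91, differed by 0.28 ± 0.30, and its arrays overlapped. Both are near the filter level, where the added 16 narrows differences, but how much of the disagreement this accounts for was not tested. The second is also of a kind whose probes may read other transcripts. The mean of the 3 probe sets gave 1.37.

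The stretch before the outermost annotated start of Ctsc (RefSeq, GRCm38.p6, plus strand, chr7:88277835-88278023) is printed because this gene had the largest difference of the family. Capitals would mark CACGTG, the core of the E-box bound by lysosomal regulators of the TFEB family, and there is no such hexamer in it.
Ctsc: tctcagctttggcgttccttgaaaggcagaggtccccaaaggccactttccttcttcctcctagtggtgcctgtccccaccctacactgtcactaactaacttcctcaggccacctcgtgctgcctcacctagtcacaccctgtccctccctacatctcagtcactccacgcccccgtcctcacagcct

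Over the 6 arrays, with each gene centred on its mean, the genes whose values lay closest to those of Ctsc were Cyp26a1, which encodes the enzyme that clears retinoic acid, then Irs4, an insulin receptor substrate, and Cer1, a secreted antagonist. Their root mean square distances from Ctsc were 0.11, 0.13 and 0.15 on the log2 scale. Their log2 fold changes were 3.02 ± 0.14, 2.72 ± 0.15 and 3.09 ± 0.21 (SE). This measure mostly follows the size of the group difference. For Ctsl, the member with the smallest difference, the closest genes were Dnajc8, Fahd2a and Lce1a1, at 0.02, 0.03 and 0.04.

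Ctsh, an aminopeptidase among the cysteine cathepsins, read 10.07, 9.83 and 10.25 on the control arrays against 10.96, 10.67 and 10.81 on the RA arrays. Every RA array lay above every control array, by at least 0.43. With RA it was 1.70 times higher, a log2 fold change of 0.77 ± 0.11. The probe set that stands for Ctsh is of the kind whose probes may also read other transcripts. A second probe set at nearly the same level gave 0.73 ± 0.11, with values of 10.03, 9.67 and 9.88 on the control arrays against 10.51, 10.71 and 10.56 on the RA arrays.

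Ctsz is a carboxypeptidase that trims single residues from the C terminus. Its level read 10.45, 10.27 and 10.21 on the control arrays against 10.34, 10.88 and 10.59 on the RA arrays, and RA array 1 lay within the control range. The log2 fold change of 0.29 ± 0.12 did not pass the threshold. Its 2 other probe sets gave 0.46 ± 0.10, which passed in the fit across probe sets, and 0.16 ± 0.11, which did not. Both are of kinds whose probes may also read other transcripts. Without RA array 1 the log2 fold change of Ctsz was 0.42, and it then passed, as did the mean of the 3 probe sets (0.31).

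Ctsb, an abundant cysteine protease with both endopeptidase and carboxypeptidase activity, was lower with RA. Its level read 10.48, 10.78 and 10.95 on the control arrays against 10.13, 9.99 and 10.01 on the RA arrays, with the groups 0.35 apart at their closest. It was 1.62 times lower with RA, a log2 fold change of -0.69 ± 0.11. Of its 5 probe sets 4 passed the filter, and all 4 were lower with RA. Their differences ran from -1.03 to -0.63, and 3 passed in the fit across probe sets, where 22.4% of all probe sets did. The brightest probe set was not the one that differed most. The second brightest lay at 9.32, 9.24 and 9.60 on the control arrays against 7.99, 8.54 and 8.54 on the RA arrays.

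Ctsd, the main aspartic protease of lysosomes, read 10.15, 9.91 and 10.06 on the control arrays against 9.35, 9.37 and 9.47 on the RA arrays. The groups lay 0.44 apart at their closest. Its single probe set gave a log2 fold change of -0.64 ± 0.09, or 1.56 times lower. Without scaling between arrays the median log2 fold change over all genes was 0.26 in place of 0.01, and the values of Ctsb and Ctsd were -0.30 ± 0.28 and -0.29 ± 0.29, neither past the threshold. Relative to that median they were -0.56 and -0.55, against -0.70 and -0.65 with quantile normalization.

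The 250 bases before the start of Ctsd (RefSeq, GRCm38.p6, minus strand, chr7:142387828-142388077) are printed because they hold the hexamer CACGTG at 2 places, in capitals.
Ctsd: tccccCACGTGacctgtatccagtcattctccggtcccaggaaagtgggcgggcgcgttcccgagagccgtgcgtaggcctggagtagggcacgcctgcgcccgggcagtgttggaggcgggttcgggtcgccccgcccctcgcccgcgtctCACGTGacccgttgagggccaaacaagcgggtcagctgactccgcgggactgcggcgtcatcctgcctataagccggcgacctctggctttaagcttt

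Ctsa, the carboxypeptidase also called protective protein, shields beta-galactosidase (Glb1) and neuraminidase (Neu1) in a lysosomal complex. Its level read 9.30, 9.05 and 9.32 on the control arrays against 8.85, 8.91 and 9.01 on the RA arrays, with the groups 0.04 apart. The log2 fold change was -0.30 ± 0.11, short of the threshold, and -0.39 and past it without control array 2. Without scaling it was -0.01. The partners Glb1 and Neu1, named for this role after their values were seen, had log2 fold changes of -0.15 ± 0.15 and -0.13 ± 0.17, and neither passed (limma adjusted p = 0.500 and 0.599).

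Ctsl, an endopeptidase of lysosomes that is also secreted, showed no difference beyond the spread between arrays. It lay at 12.14, 12.22 and 12.36 on the control arrays against 12.30, 12.24 and 12.17 on the RA arrays, so the groups overlapped throughout. The log2 fold change was -0.002 ± 0.07, and it was 0.38 ± 0.25 without scaling and 0.08 ± 0.09 with trimmed mean scaling. The second Ctsl probe set was below the filter level.

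Ctsf, a cysteine protease with a long propeptide, read 7.00, 6.75 and 6.80 on the control arrays against 6.25, 7.40 and 6.60 on the RA arrays. Its RA arrays spanned the whole control range, with a log2 fold change of -0.10 ± 0.28. Without RA array 1 the value was 0.15. Ctsk and Ctss lie next to each other on chromosome 3, and both were dim here. Ctsk, the collagen-degrading protease of osteoclasts, read 5.46, 5.97 and 5.79 on the control arrays against 6.17, 6.53 and 6.03 on the RA arrays, and the groups were 0.05 apart. Its log2 fold change was 0.50 ± 0.29 and did not pass. Of the 3 osteoclast markers tested, the calcitonin receptor Calcr rose (log2 fold change 2.27 ± 0.20, limma adjusted p = 8.49e-06). Acp5 and Nfatc1 did not pass (0.03 ± 0.42 and 0.10 ± 0.19). The other 4 of the 7 listed markers did not pass the filter. The summed signal of the 3, in normalized linear intensity, was 201 to 270 on control arrays and 409 to 499 on RA arrays, and without Calcr it was 148 to 224 and 162 to 227. Their part in the Ctsk values was not tested.

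Ctss, the cathepsin of antigen-presenting cells, read 5.19, 7.02 and 5.77 on the control arrays against 5.45, 6.16 and 5.34 on the RA arrays. Of the 6 arrays 3 lay below the filter level, control array 2 was the highest, and without it the log2 fold change turned from -0.34 ± 0.46 to 0.17. The RA mean of 5.65 lay below the filter level. Of 15 macrophage markers tested, 0 rose and 8 fell, beside 15.6% of all genes. Of those 8, 6 had an RA mean below the filter level and passed the filter only through the control arrays, so their count is a description. The complement gene C1qb, the signalling adaptor Tyrobp and the lysosomal glycoprotein Cd68 fell, with log2 fold changes of -2.45 ± 0.29, -2.27 ± 0.35 and -1.57 ± 0.29 (SE, limma adjusted p = 6.71e-05, 0.000544 and 0.00162). The RA means of C1qb (5.01) and Cd68 (5.54) lay below the filter level, where the size of a fold is uncertain. The adjusted p of these genes is likewise a description. The receptor Csf1r was 0.21 ± 0.22 and did not pass. The summed signal of these markers was 1717 to 2516 on control arrays and 1150 to 1331 on RA arrays. Their part in the values of Ctss, Ctsb, Ctsc, Ctsd and the inhibitors was not tested.

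**Figure D2:**
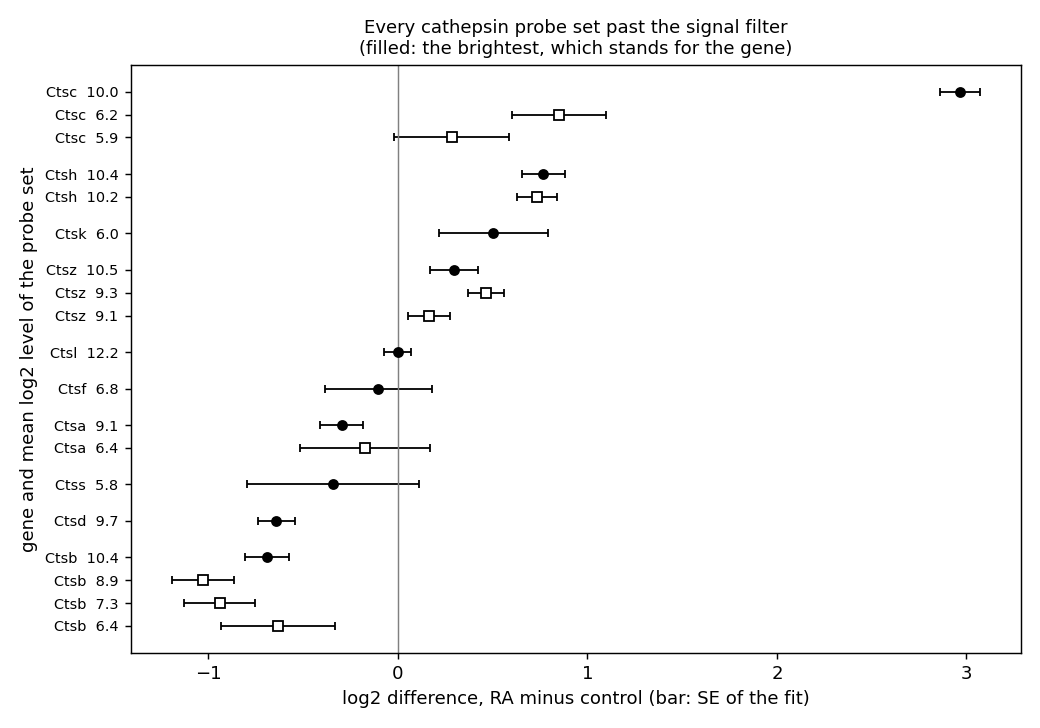
Log2 difference, RA minus control (horizontal axis), of each of the 19 cathepsin probe sets past the filter, with the SE of the fit across probe sets. Each line is labelled with the gene and the mean log2 level of that probe set. The 4 Ctsb probe sets lie left of 0 and both Ctsh probe sets right of it, while the 3 Ctsc probe sets run from 0.28 to 2.97.

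Markers of other lineages shifted strongly in the same samples. Of 14 visceral endoderm markers 5 rose and 9 fell, beside 14.3% and 15.6% of all genes. Those that rose were the endocytic receptor genes Cubn (log2 fold change 3.22 ± 0.22), Amn (2.94 ± 0.21) and Lrp2 (1.91 ± 0.21), the endocytic adaptor gene Dab2 (1.75 ± 0.10) and the lipoprotein gene Apob (1.10 ± 0.19). The control mean of Amn, 5.64, lay below the filter level. Those that fell included Fgb (-5.12 ± 0.15), Rbp4 (-3.40 ± 0.08), Fga (-3.12 ± 0.21), Afp (-2.69 ± 0.09) and Apoa1 (-2.49 ± 0.11). The other falls were Fgg (-2.36 ± 0.29), Gata6 (-1.53 ± 0.10), Ttr (-1.21 ± 0.08) and Hnf4a (-0.98 ± 0.14). With RA, Fgb, Fga and Fgg averaged 5.11, 5.51 and 5.63, under the filter level of 5.74, so the size of their falls is uncertain. Amn passed the filter only through the RA arrays, and Fgb, Fga and Fgg only through the control arrays. The counts of visceral endoderm markers are thus a description. The summed signal of the 14 was 32550 to 34226 on control arrays and 10814 to 12752 on RA arrays, and without the bright serum protein genes Afp, Ttr and Rbp4, all of which fell, it was 5975 to 6241 and 4463 to 5423. Of 13 mesenchyme markers 1 rose and 11 fell, beside the same 14.3% and 15.6% of all genes. The 1 that rose, Thy1, had a control mean of 5.47, below the filter level. Thy1 passed the filter only through the RA arrays, so the count is a description. The summed signal of the 13 was 28847 to 33366 on control arrays and 6546 to 7073 on RA arrays. These markers' part in the cathepsin values was not tested. The summed signal of the 10 cathepsins was 10611 to 11708 on control arrays and 12849 to 13676 on RA arrays. Ctsc rose from a mean log2 level of 8.51 to 11.47 and Ctsh from 10.05 to 10.82, while Ctsb and Ctsd fell. The sum thus mixes rises and falls of its members and is a description.

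Beyond the 10 genes, the list held 12 further cathepsin genes with probe sets, of which 4 passed the filter. Ctso, a cysteine protease, fell with RA, and Ctsj, of the rodent placental cathepsin cluster, rose. Ctso read 8.33, 8.26 and 8.33 on the control arrays against 6.49, 6.32 and 6.19 on the RA arrays, a log2 fold change of -1.97 ± 0.16, or 3.92 times lower (SE, limma adjusted p = 5.32e-06). With the mean of its probe sets the value was -1.15, and it also passed. Ctsj read 4.41, 5.79 and 5.42 on the control arrays against 7.11, 7.29 and 7.23 on the RA arrays (log2 fold change 2.00 ± 0.35, limma adjusted p = 0.00111). Its control mean of 5.21 lay below the filter level, so the fold is open to background. It passed the filter only through the RA arrays, so its adjusted p is a description. Ctse, an aspartic protease, and Ctsg, a granule serine protease, did not pass (0.44 ± 0.21 and 0.003 ± 0.29, limma adjusted p = 0.142 and 0.995).

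With no filter on signal, 2 further placental cathepsins, Ctsq and Ctsr, passed as higher with RA, beside 1820 of all 18193 genes. Ctsq had a log2 fold change of 1.43 ± 0.30 and Ctsr one of 1.11 ± 0.31 (limma adjusted p = 0.00678 and 0.0304). Ctsq had a control mean of 4.72, below the filter level, and an RA mean of 6.16, and Ctsr was below it in both groups, at 4.31 and 5.42. The adjusted p of both is therefore a description. The other genes of that cluster did not pass, at -0.91 for Ctsm, -0.15 for Cts6, -0.13 for Cts3, 0.23 for Cts7 and 0.42 for Cts8. Genes of this cluster are close copies of each other, and their probe sets may read more than 1 of them.

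Of 28 genes listed as inhibitors, 9 were tested, and 6 fell while 0 rose. This is 66.7%, beside 15.6% of all genes that fell, and the median log2 fold change was -0.70. Of the 6, Kng1 passed the filter only through the control arrays, so the count is a description. With no threshold on the adjusted p, 7 of the 9 lay below 0. Ctla2a and Ctla2b, which resemble the propeptide of cysteine cathepsins and inhibit them, were 5.25 and 3.72 times lower with RA. Ctla2a read 9.37, 9.60 and 9.45 on the control arrays against 7.12, 7.31 and 6.80 on the RA arrays. Ctla2b was 8.20, 8.26 and 8.38 against 6.30, 6.35 and 6.52. Their log2 fold changes were -2.39 ± 0.15 and -1.89 ± 0.16 (SE, limma adjusted p = 5.34e-07 and 6.87e-06). The genes are close copies, so each probe set may also read the other.

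The secreted cystatin C gene, Cst3, read 10.86, 10.72 and 10.84 on the control arrays against 9.91, 10.23 and 10.17 on the RA arrays. It fell, with a log2 fold change of -0.70 ± 0.10 (limma adjusted p = 0.000220), and did not pass without scaling (-0.31). The cytosolic cystatin B gene, Cstb, was 11.86, 12.12 and 12.05 against 11.68, 11.67 and 11.83, a fold change of -0.29 ± 0.08 (limma adjusted p = 0.0233). It did not pass when control array 2 or 3, or RA array 1 or 2, was left out, at values from -0.26 to -0.23, and with the mean of its probe sets (-0.13). Without scaling it was 0.12.

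The plasma proteins Kng1 (kininogen) and Ahsg (fetuin A), which carry cystatin domains, also fell. Kng1 read 8.19, 7.97 and 7.95 on the control arrays against 5.74, 4.56 and 4.65 on the RA arrays (log2 fold change -3.05 ± 0.31, limma adjusted p = 2.60e-05), and its RA mean of 4.98 was below the filter level. Kng1 passed the filter only through the control arrays, so its adjusted p is a description. Ahsg was 8.84, 8.75 and 8.72 against 7.48, 6.33 and 7.13 (-1.79 ± 0.24, limma adjusted p = 0.000191). Serpinb6a, Serpinb1a and Fetub did not pass, at -0.02 ± 0.10, 0.18 ± 0.33 and 0.27 ± 0.30.

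**Figure D3:**
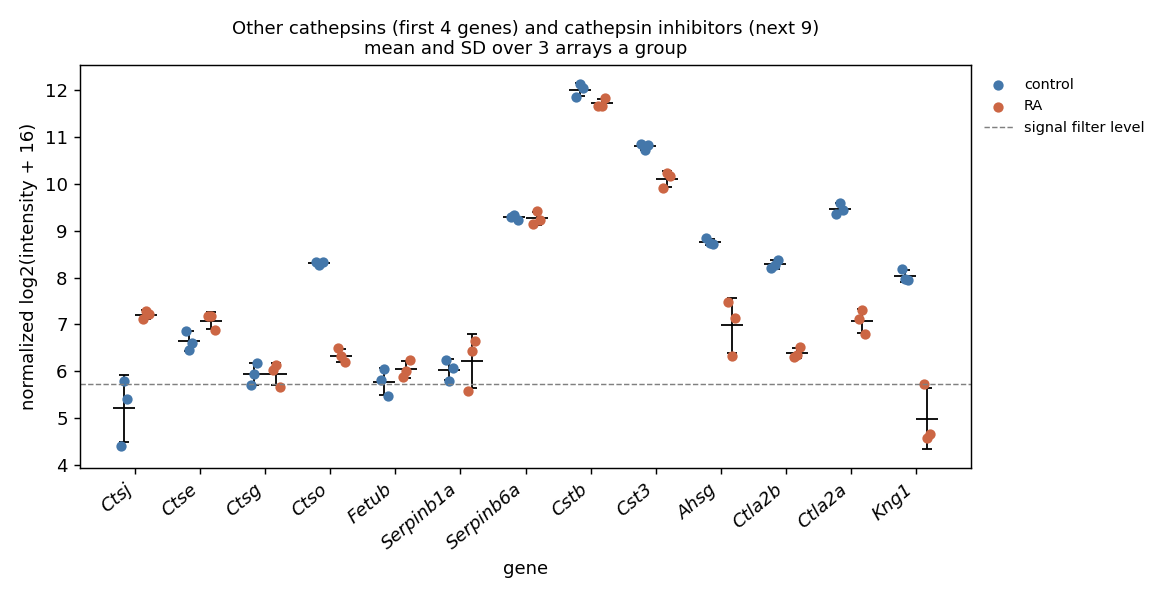
Normalized log2(intensity + 16) of the 4 other cathepsins and the 9 inhibitors tested, on each control and RA array, with the mean and SD of 3 arrays and a dashed line at the filter level of 5.74. In the 6 inhibitors that fell, every RA array lies below every control array.

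Genes that build and supply the lysosome moved in both directions, at a rate close to that of all genes. Of 93 genes tested in the lists of hydrolases, membrane proteins, proton pump subunits and sorting factors, 10 rose and 19 fell. That is 31.2%, beside 30.0% of all genes, and the median log2 fold change was -0.10.

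Among 36 lysosomal hydrolases 3 rose and 10 fell (36.1%), beside 30.0% of all genes in either direction. Lgmn, the legumain protease that cleaves cathepsin precursors into mature chains, read 8.74, 8.60 and 8.63 on the control arrays against 9.38, 9.81 and 9.61 on the RA arrays. It rose by 0.95 ± 0.12 on the log2 scale (limma adjusted p = 0.000121). Naglu, which degrades heparan sulfate, fell (-1.11 ± 0.15, limma adjusted p = 0.000208). The peptidase Tpp1 and the fucosidase Fuca1 fell as well (-0.45 ± 0.07 and -0.84 ± 0.14, limma adjusted p = 0.000652 and 0.000777). Without scaling 1 hydrolase was higher and 1 was lower, and 1 was higher without any single array other than RA array 1. Tpp1 (-0.04) and Fuca1 (-0.54) did not pass without scaling, nor did Fuca1 with the mean of its probe sets (-0.30).

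Of 22 lysosomal membrane proteins 1 rose and 4 fell (22.7%), beside 30.0% of all genes in either direction. Scarb2, the receptor that carries glucocerebrosidase to lysosomes, read 9.90, 10.07 and 10.24 on the control arrays against 8.74, 8.89 and 8.79 on the RA arrays (log2 fold change -1.26 ± 0.11, limma adjusted p = 5.62e-06). The membrane proteins Lamp2 and Laptm4a fell and the cholesterol exporter Npc1 rose (-0.53 ± 0.08, -0.51 ± 0.08 and 0.73 ± 0.15, limma adjusted p = 0.000543, 0.000717 and 0.00378). Without scaling 1 of these fell, and Lamp2 and Laptm4a were at -0.14 and -0.11. Without control array 3, 2 rose.

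The vacuolar ATPase, the pump that acidifies lysosomes, had small changes: 2 of 18 subunit genes rose and 3 fell. This is 27.8%, beside 30.0% of all genes in either direction. Atp6ap2 and Atp6v1c1 rose and Atp6v1a and Tcirg1 fell (0.33 ± 0.07, 0.29 ± 0.08, -0.33 ± 0.09 and -0.46 ± 0.15, limma adjusted p = 0.00587, 0.0146, 0.0134 and 0.0334). Without RA array 3, 1 rose and 0 fell, and Atp6v1a and Atp6v1c1 stood at -0.31 and 0.27. When RA array 1 or 2, or the third control array, was left out, 1 fell. Tcirg1 passed only without control array 1 among the arrays left out, with values from -0.49 to -0.38 elsewhere, and without scaling it was -0.25, Atp6v1a 0.04 and Atp6v1c1 0.67, none past the threshold.

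Of 17 sorting genes 4 rose and 2 fell (35.3%), beside 30.0% of all genes in either direction. Lrp2 (megalin), an endocytic receptor of absorptive epithelia, read 6.10, 5.57 and 5.98 on the control arrays against 7.89, 7.71 and 7.79 on the RA arrays, a rise of 1.91 ± 0.21 (limma adjusted p = 4.91e-05). Lrp2 is also one of the visceral endoderm markers. Gnptab, which encodes the enzyme that starts the mannose 6-phosphate tag, rose by 0.98 ± 0.21 (limma adjusted p = 0.00501). The adaptor subunit Ap1m1 and the mannose 6-phosphate receptor gene Igf2r fell (-0.84 ± 0.12 and -0.57 ± 0.13, limma adjusted p = 0.000277 and 0.00698), and without scaling neither passed (-0.51 and -0.31). When RA array 1 or 3, or the second control array, was left out, 2 sorting genes rose, as without scaling.

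Of 5 transcription factor genes of lysosome biogenesis, 2 passed (40%), beside 30.0% of all genes in either direction. Among them, Tfec rose by 0.64 ± 0.18 and Tfe3 by 0.43 ± 0.12 (limma adjusted p = 0.0196 and 0.0211). Tfeb, the best known of them, read 7.41, 7.53 and 7.92 on the control arrays against 7.46, 7.78 and 7.96 on the RA arrays and did not pass, like Mitf and Zkscan3 (0.11 ± 0.19, -0.26 ± 0.21 and -0.29 ± 0.16). Tfec did not pass when array 2 or 3 of either group was left out (0.56 to 0.61). Tfe3 did not pass when RA array 1 or 2, or the first control array, was left out (0.33 to 0.41), nor without scaling (0.70). Without RA array 2, 0 of the 5 passed.

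**Figure D4:**
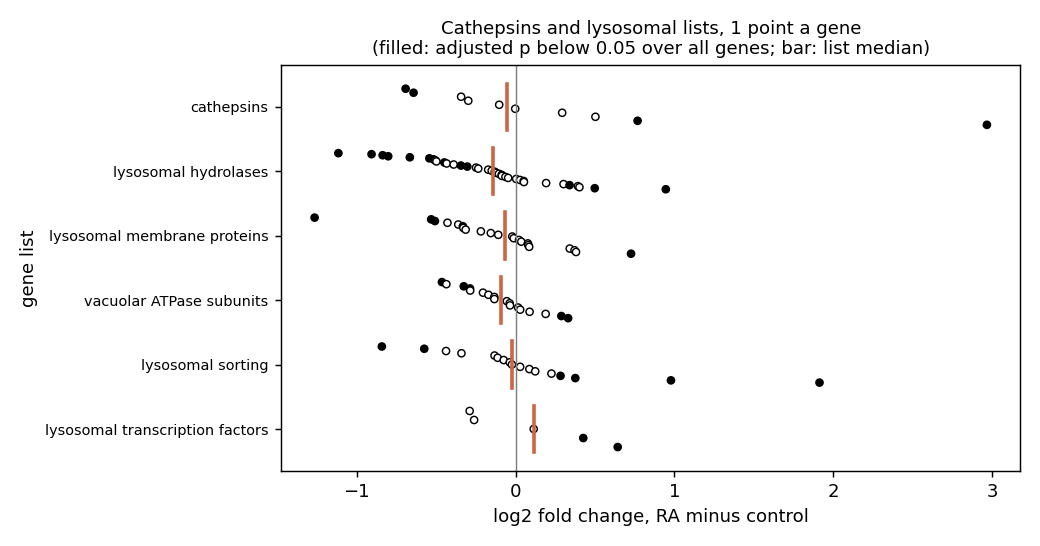
Log2 fold change, RA minus control (horizontal axis), of the 10 cathepsins and of each tested gene in 5 lysosomal lists, 1 point a gene, filled where the adjusted p was below 0.05 over all genes, with a bar at each list's median. The medians lie between -0.14 and 0.11, and Ctsc at 2.97 lies outside the range of all 5 lysosomal lists.

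RefSeq promoter windows of 300 bases (250 before and 50 after the start, GRCm38.p6) were found for 8 of the 10 genes, with 9 windows in all. Ctsb and Ctsh had no window, so they were not searched. The hexamer CACGTG, which reads the same on both strands, was present in windows of 4 genes, Ctsa, Ctsd, Ctsf and Ctsl, beside 7.15% of all 32851 windows. The longer form TCACGTGA was present in Ctsa and Ctsd, beside 0.974% of all windows. In Ctsd the hexamers begin 245 and 98 bases before the start, the second within the longer form. In the second of the 2 windows of Ctsa they begin 12 bases before the start and at base 6 after it. The log2 fold changes of the 4 genes, given above, ran from -0.64 for Ctsd to -0.002 for Ctsl. AGGTCA, the half-site that retinoid receptors share with other nuclear receptors, was chosen after the values were seen and searched on both strands. It was present in windows of Ctsa, Ctsd, Ctsf and Ctss, beside 16.3% of all windows. In Ctsd it overlaps the first hexamer, and it was not among the letters of the Ctsc window. A match is a description of these letters and not a binding site.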

How the data were processed

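The values are the deposited linear intensity of each probe set on 6 Affymetrix arrays, made with GCOS at default settings, per the labels. The GCOS version is not given in the sources used here, and no detection calls were used. The 10 genes and all lists were chosen with earlier results of these data known. After removal of 64 control probe sets, log2(intensity + 16) was quantile-normalized. Probe sets with a mean above the 40th percentile were kept (27022), and the brightest probe set with 1 symbol stood for each gene. Genes are named as in the annotation table of the platform. The comparison used lmFit and eBayes with a trend (limma 3.58.1, R 4.3.3), two-sided and without covariates, with Benjamini-Hochberg adjustment over 13608 genes at 0.05 and SE from the fit. A separate fit covered all kept probe sets. The procedure was also run on simulated data with independent noise and few changed genes. In the arrays 30.0% of genes passed, so that run cannot show how well the calls hold here. The number of arrays (3 a group) limits the precision, and the smallest exact permutation p is 0.1.

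Named genes were all 10 cathepsins, up to 4 of smallest p from each other list (at most 3 of one direction where both held calls), and all called genes of the lists for other cathepsins, inhibitors and transcription factors. Other genes are marker list examples or said to be chosen later. Summed signals are sums of normalized linear values less the pseudocount. Alternatives covered scaling, pseudocount, filter, choice of probe set, a replicate block and leaving out arrays with the probe sets fixed.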

Additional observations from a re-analysis of the deposited data

How the results depend on the processing

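As a description of a family selected on this contrast, Ctsc and Ctsh were above 0 and past the threshold under all 15 alternatives, with log2 fold changes from 1.37 to 3.29 and from 0.66 to 1.16. Ctsb and Ctsd passed as lower under 14, all except no scaling. Without scaling 0 cathepsins and 651 of all genes passed as lower, and 72.9% of calls were higher, against 47.8%. Without 1 array, 2 to 3 cathepsins were higher and 2 to 3 lower, as were 1487 to 1815 and 1733 to 1928 of all genes. Without RA array 1 and control array 3 together, 3 cathepsins were higher and 2 lower.

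Values whose direction turned were those of uncalled cathepsins or of named genes that did not pass in the alternative, and the cause was not tested. Ctsf turned without scaling (0.111) and without RA array 1, alone (0.149) or with control array 3 (0.128), and ran from -0.429 to 0.149 without 1 array. Ctsl turned without scaling (0.384), with trimmed mean scaling (0.0754) and with RA array 1 and control array 3 left out (0.0244), and ran from -0.0523 to 0.0569 without 1 array. Ctss ran from -0.741 to 0.168 without 1 array and was above 0 without control array 2. Ctsg turned with trimmed mean scaling (-0.0315) and ran from -0.115 to 0.137 without 1 array. Cstb (0.115) and Atp6v1a (0.0431) turned without scaling, and Mitf with the mean of probe sets (0.00076).

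Of 30 other named genes 26 passed the threshold, of which 3 lost their call when RA array 1 and control array 3 were left out together, 12 without scaling, 3 with the mean of probe sets and 1 with trimmed mean scaling. With a pseudocount of 1 or 64, or no filter, 0 did. At the 60th percentile 24 of the 26 were tested and 0 lost it. The replicate number did not pair the arrays: same-numbered arrays correlated at -0.09, -0.01 and -0.03 in their deviations from group means, and no array correlated best with its own number. With the replicate block 1775 of all genes were higher and 1949 lower, against 1949 and 2127. With that block 2 cathepsins were higher and 2 lower, and of the 26 named genes 1, Tcirg1, lost its call.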
